A study of Nicotiana benthamiana with 6 samples.

Results

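Of the 167935 unigenes assembled from *N. benthamiana* leaves, 251 belong to sugar transport and to the metabolism of sucrose, starch, trehalose and raffinose. Each member has a protein match from *Nicotiana* or *Solanum* in the NR database and a UniProt match whose name holds at least 1 of 13 keywords: SWEET, sugar transport, sugar carrier, sucrose, fructofuranosidase, invertase, starch, trehalose, alpha-amylase, beta-amylase, glucose-1-phosphate adenylyltransferase, hexokinase or galactinol. Another 28 unigenes carried a keyword without an NR match of these genera and were left out. The 251 unigenes matched 112 UniProt entries. A unigene is an assembled transcript, and *N. benthamiana* is an allotetraploid, so unigenes that share a UniProt entry may be copies or pieces of 1 gene and were not treated as independent. Identifiers that share their first number (c86101_g1_i1 and c86101_g2_i1, for example) come from 1 Trinity component, a group of contigs that the assembler kept together. Names are those of the UniProt match, often from another species, and a match does not make a unigene the counterpart of that gene.

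RNA was sequenced in 3 libraries of leaves overexpressing *MaWRKY45* (OE) and in 3 libraries of mock leaves. OE leaves were infiltrated with *Agrobacterium tumefaciens* LBA4404 carrying pCAMBIA2200::*MaWRKY45*, in which the CaMV35S promoter drives a banana WRKY transcription factor, and mock leaves received the same strain with empty pCAMBIA2200. All plants were wild type and 5 weeks old, the bacteria were used at an OD600 of 1.0, and leaves were taken 3 days after infiltration. Each library pooled RNA of 3 plants, so the spread between libraries is that between pools, and since both groups were infiltrated the comparison holds no untreated leaf.

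Leaves make sucrose and starch from the carbon fixed by day. Sucrose-phosphate synthase and its phosphatase make sucrose in the cytosol, SWEET proteins and sucrose transporters move it toward and into the phloem, and invertases and sucrose synthases split it where it is used. ADP-glucose pyrophosphorylase (AGPase, glucose-1-phosphate adenylyltransferase) and the starch synthases build starch in the chloroplast, and at night glucan dikinases and amylases take it apart. Trehalose-6-phosphate is a signal of sucrose status, and galactinol synthases and galactosyltransferases lead from sucrose to the raffinose family of oligosaccharides, known as stress protectants.

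Total counts ranged from 12590186 to 13465854 in the OE libraries and from 12031310 to 14285138 in the mock libraries, and the 251 unigenes took 0.646 to 0.800% of them in OE and 0.751 to 0.838% in mock. The unigene matched to a banana WRKY protein, c147189_g1_i1, had 3133, 4527 and 3615 counts in OE replicates 1, 2 and 3, against 1617, 781 and 1455 counts in mock replicates 1, 2 and 3 (log2 fold change 1.46, SE 0.29, adjusted p = 0.0181). The groups did not overlap, and the adjusted p was 0.0508 without OE replicate 1, 0.072 without OE replicate 2 and 0.0702 without mock replicate 1. Its UniProt match is a cauliflower mosaic virus protein, and reads of *MaWRKY45* and of vector sequence present in both constructs cannot be told apart in it. Leaf markers were present in all libraries. Of 34 unigenes for the Rubisco small subunit and chlorophyll a-b binding proteins, 23 were tested, and 1 was called higher and 5 lower (26.1%, against 4.59% of all tested unigenes). Their median log2 fold change was -1.43, against -0.01 over all tested unigenes. Their summed level was 5837 to 10297 TMM CPM (CPM after TMM scaling) in OE and 9101 to 28975 TMM CPM in mock. None of the 9 tested phloem markers of 10 was called by edgeR (4 at an unadjusted p under 0.05, summed 189 to 237 TMM CPM in OE and 123 to 199 TMM CPM in mock). The untested 1, a SIEVE ELEMENT OCCLUSION B unigene of 230 bases, had 0, 4 and 0 counts in OE and no count in mock. A longer unigene of that name, c108759_g1_i1, had 610, 536 and 145 counts in OE and 240, 121 and 144 counts in mock. Another, c121318_g1_i1, had 454, 376 and 126 counts in OE and 241, 147 and 163 counts in mock. In both the groups overlapped. Of the 9 tested phloem markers, 5 had a positive and 4 a negative fold change. PHLOEM PROTEIN 2-LIKE A10 unigenes c97248_g1_i2 and c161633_g1_i1 each had a log2 fold change of -0.62, without overlap of the groups. Of 5 guard cell markers 4 were tested and none was called by edgeR (1 at an unadjusted p under 0.05), at 37.0 to 52.3 TMM CPM summed in OE and 63.7 to 71.3 TMM CPM in mock. That 1, potassium channel KAT1 c99010_g2_i3, also passed an adjusted p of 0.05 but not a 2-fold change (log2 fold change -0.90, adjusted p = 0.0277). Its groups did not overlap. The other 3 had log2 fold changes from 0.02 to 0.71 with overlapping groups. Yeast transcripts took 0.0033 to 0.0127% of counts in OE and 0.0685 to 0.104% in mock. The part of these differences in the results below was not tested, and in RNA from whole leaves fewer cells of a type and less RNA per cell cannot be told apart.

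Counts were compared with edgeR's quasi-likelihood F test over the 37201 unigenes with enough counts, and calling a unigene took a Benjamini-Hochberg adjusted p under 0.05 together with at least a 2-fold change. Of the 251 sugar and starch unigenes, 140 were tested and 19 of these (13.6%) were called, 4 higher and 15 lower in OE. Among all tested unigenes 4.59% were called, 1.92% higher and 2.67% lower. An adjusted p under 0.05 at any fold was reached by 22 of the 140, against 5.11% of all tested unigenes. The lower ones included unigenes for sucrose-phosphate synthase, sucrose synthase, AGPase, galactinol-sucrose galactosyltransferase and SWEET transporters, and the higher ones were 2 hexose transporters, a neutral invertase and a chloroplast beta-amylase. Most tested unigenes were not called. The median log2 fold change of the 140 was -0.11, with 60 higher and 80 lower in OE, against a median of -0.01 over all tested unigenes. The 3 OE values lay wholly apart from the 3 mock values in 57 of the 140 (40.7%), a pattern found in 22.9% of all tested unigenes. The 19 calls lie in 16 UniProt entries and 17 Trinity components.

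The count of calls leaned on single libraries. It was 12 without OE replicate 1, 10 without OE replicate 2, 27 without OE replicate 3, 9 without mock replicate 1, 26 without mock replicate 2 and 19 without mock replicate 3. The 6 unigenes called in all of these fits were sugar carrier protein C c51155_g1_i1, the sucrose synthase 2 pair c86101_g1_i1 and c86101_g2_i1, neutral invertase B c89625_g4_i1, galactosyltransferase 1 c99519_g1_i7 and sucrose-phosphate synthase 2 c100213_g1_i5. With library size alone in place of TMM, 17 were called, 5 higher and 12 lower. With this scaling the median over all tested unigenes was 0.11 and that of the 140 was 0.01 (log2 fold change), which changed the lower share of all calls to 44.6%, against 58.1% with TMM.

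**Figure D1:**
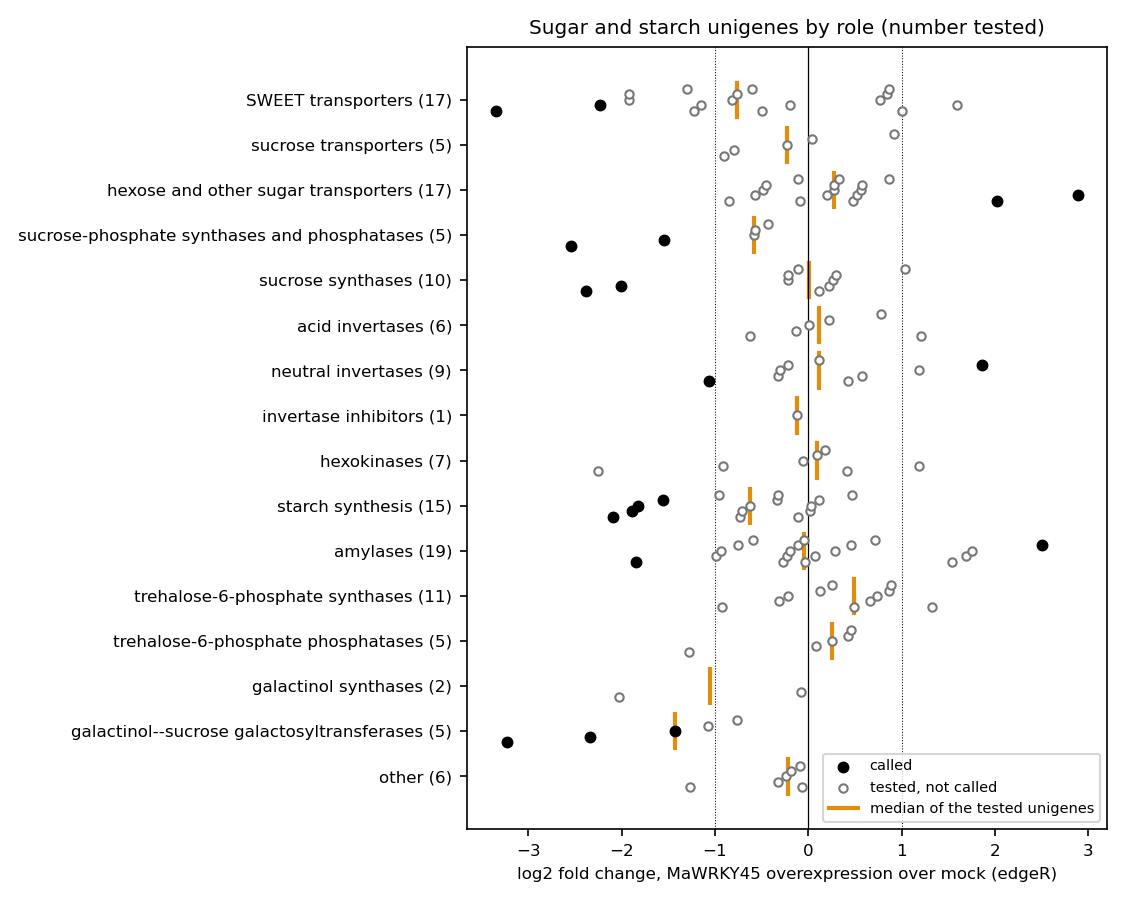
Log2 fold change (OE over mock, edgeR) of each of the 140 tested sugar and starch unigenes, by role, with the number tested in brackets. Filled points are called, open points were tested and not called, orange bars are the medians of the tested unigenes of a role, and dotted lines mark a fold change of 2. The medians run from -1.43 in the galactinol-sucrose galactosyltransferases to 0.49 in the trehalose-6-phosphate synthases.

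Unigenes of sucrose synthesis had lower values in OE at each one tested. Sucrose-phosphate synthase (SPS) makes sucrose-6-phosphate and sucrose-phosphatase removes its phosphate. All 5 tested unigenes of the 8 for these enzymes had OE values below the mock range, a pattern found in 11.5% of all tested unigenes, and 2 of them were called. Sucrose-phosphate synthase 2 (c100213_g1_i5) had 1.35, 1.46 and 3.69 TMM CPM in OE, against 15.7, 11.8 and 10.6 TMM CPM in mock. Every OE library was below every mock library, and the level was 5.82-fold higher in mock (log2 fold change -2.54, SE 0.39, adjusted p = 0.00615). Sucrose-phosphate synthase 4 (c93480_g3_i5) had 19.0, 19.9 and 51.8 TMM CPM in OE, against 78.3, 114 and 72.4 TMM CPM in mock. OE replicate 3 stood nearer to mock than the other OE libraries (log2 fold change -1.55, SE 0.37, adjusted p = 0.0418), and the adjusted p was 0.137 without OE replicate 1, 0.145 without OE replicate 2, 0.108 without mock replicate 1, 0.0546 without mock replicate 2, 0.0639 without mock replicate 3, 0.0671 with library size alone and 0.0558 with plant unigenes alone. The most abundant unigene of the role, SPS c98438_g1_i1, was not called. It had 165, 126 and 210 TMM CPM in OE, against 232, 237 and 280 TMM CPM in mock (log2 fold change -0.58, adjusted p = 0.174). Sucrose-phosphatase 2 (c98297_g5_i1) had 41.8 ± 4.73 TMM CPM in OE and 61.8 ± 7.23 TMM CPM in mock (SD, n = 3 each, adjusted p = 0.0988). Summed over the 8 unigenes, the level was 189 to 315 TMM CPM in OE and 387 to 437 TMM CPM in mock.

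The enzymes that split sucrose moved in both directions. Sucrose synthase cleaves sucrose with UDP to UDP-glucose and fructose, and the called pair of its unigenes shares the entry of pea sucrose synthase 2 and a Trinity component. The longer of the pair, c86101_g1_i1 (2155 bases), had 22.1, 17.6 and 38.8 TMM CPM in OE, against 139, 72.0 and 106 TMM CPM in mock (log2 fold change -2.01, SE 0.32, adjusted p = 0.00774). The other, c86101_g2_i1 (1270 bases), had 3.09, 4.03 and 7.15 TMM CPM in OE, against 23.6, 19.1 and 32.0 TMM CPM in mock (log2 fold change -2.38, SE 0.33, adjusted p = 0.00404). Both were lower in every OE library than in any mock library, and with their counts summed the log2 fold change was -2.07 (adjusted p = 0.00559). The remaining 8 tested sucrose synthase unigenes were not called. Among them was the most abundant, c98223_g2_i2, at 169, 231 and 95.4 TMM CPM in OE and 120, 153 and 182 TMM CPM in mock, where the groups overlap (adjusted p = 0.879).

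Neutral invertases split sucrose to glucose and fructose inside the cell, and 9 of their 18 unigenes were tested. The chloroplast form, alkaline/neutral invertase E (c76163_g1_i1), had 57.2, 50.9 and 63.3 TMM CPM in OE, against 115, 118 and 125 TMM CPM in mock. With narrow groups this was the smallest of the called decreases (log2 fold change -1.06, SE 0.17, adjusted p = 0.00677), and the call was lost without OE replicate 2 (adjusted p = 0.0529) and with library size alone (log2 fold change -0.93, under the fold threshold). A second unigene of that entry, c99242_g2_i1, had 96.8 ± 9.74 TMM CPM in OE and 121 ± 31.7 TMM CPM in mock (SD, n = 3 each, adjusted p = 0.479). In the opposite direction, neutral invertase B c89625_g4_i1 had 26.6, 33.5 and 18.1 TMM CPM in OE, against 5.91, 7.52 and 8.17 TMM CPM in mock. It was 3.62-fold higher in OE (log2 fold change 1.86, SE 0.26, adjusted p = 0.00448). From the same Trinity component, c89625_g5_i1 had 20, 21.7 and 10.1 TMM CPM in OE, against 2.92, 9.31 and 10.5 TMM CPM in mock, and was not called (adjusted p = 0.162). When counts were summed per UniProt entry, no neutral invertase was called.

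Acid invertases work in the cell wall and the vacuole, and none of the 6 tested unigenes of 24 was called by edgeR (0 at an unadjusted p under 0.05), DESeq2 or limma-voom. The cell wall form c23296_g1_i1, matched to insoluble isoenzyme 1 of carrot, was among the most abundant of all 251 unigenes, with 636, 663 and 507 TMM CPM in OE, against 597, 561 and 823 TMM CPM in mock (log2 fold change -0.13, SE 0.23, adjusted p = 0.821). The acid invertase c100725_g5_i1, matched to tomato, had 116 ± 18.6 TMM CPM in OE and 99.6 ± 3.02 TMM CPM in mock (SD, n = 3 each, adjusted p = 0.568). In both the groups overlapped. The 1 tested invertase inhibitor, c136463_g1_i1, had 4.59 ± 0.797 TMM CPM in OE and 5 ± 1.14 TMM CPM in mock (SD, n = 3 each, adjusted p = 0.876).

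SWEET proteins let sugars pass membranes along their gradient. Of 25 SWEET unigenes 17 were tested, 12 of them at a negative and 5 at a positive fold change, and 2 were called, both lower in OE. DESeq2 called 5, among them SWEET14 and SWEET15. SWEET5 (c92606_g3_i1) had 0.475, 0.146 and 0.148 TMM CPM in OE, against 4.02, 2.76 and 1.17 TMM CPM in mock. It had the largest decrease of the 140 unigenes, at a low level (log2 fold change -3.35, SE 0.63, adjusted p = 0.015), and the adjusted p was 0.067 without OE replicate 2 and 0.0782 without mock replicate 1. SWEET3b (c94310_g1_i5) had 1.43, 0.659 and 2.14 TMM CPM in OE, against 8.47, 4.99 and 6.46 TMM CPM in mock. The groups lay apart (log2 fold change -2.23, SE 0.42, adjusted p = 0.0144), but the adjusted p was 0.0556 without OE replicate 1 and 0.0764 without mock replicate 1. SWEET15, known from senescing Arabidopsis leaves, was near the threshold. Its unigene c91919_g1_i5 had 1.11, 0.513 and 1.40 TMM CPM in OE, against 6.13, 2.98 and 2.33 TMM CPM in mock (log2 fold change -1.92, SE 0.49, adjusted p = 0.052). It was called without OE replicate 3, without mock replicate 2, by DESeq2 (adjusted p = 0.0143), with DESeq2 size factors (adjusted p = 0.0499) and without a filter on low counts.

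Other SWEET unigenes showed how unequal the family was. The SWEET unigene with the highest mean count level, SWEET14 c90706_g1_i1, had 22.9, 18.5 and 36.4 TMM CPM in OE, against 34, 104 and 44.1 TMM CPM in mock. Here OE replicate 3 fell inside the mock range and mock replicate 2 stood high (log2 fold change -1.23, SE 0.40, adjusted p = 0.117). DESeq2 called it (adjusted p = 0.0217), as did the fit without a filter, and limma-voom did not (adjusted p = 0.158). SWEET2a and SWEET17, a vacuolar fructose carrier in Arabidopsis, lay the other way. The SWEET2a unigene c94042_g1_i5 had 8.95, 12.7 and 11.6 TMM CPM in OE, against 7.08, 6.03 and 5.39 TMM CPM in mock (log2 fold change 0.84, adjusted p = 0.0731). The SWEET17 unigene c81461_g1_i2 had 2.93, 1.76 and 2.07 TMM CPM in OE, against 0.876, 1.12 and 0.180 TMM CPM in mock (log2 fold change 1.59, SE 0.53, adjusted p = 0.124). Neither was called, although the groups did not overlap in either.

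Sucrose transporters load sucrose into the phloem with protons, and none of their 5 tested unigenes of 11 was called by edgeR (1 at an unadjusted p under 0.05), DESeq2 or limma-voom. The unigene c95034_g1_i1, matched to the spinach sucrose transport protein, had 433, 463 and 712 TMM CPM in OE, against 906, 1201 and 691 TMM CPM in mock. OE replicate 3 lay just above mock replicate 3, so the groups overlapped (log2 fold change -0.80, SE 0.28, adjusted p = 0.144). Without OE replicate 3 it was called (log2 fold change -1.05, adjusted p = 0.0497).

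Hexose transporters take up glucose and other monosaccharides. Together with related sugar transporters they gave 43 unigenes, of which 17 were tested and 2 called, both higher in OE. Sugar carrier protein C c51155_g1_i1, a 575-base unigene matched to castor bean, had 18, 14.7 and 23.4 TMM CPM in OE, against 2.70, 2.68 and 2.15 TMM CPM in mock. This was the largest increase of the 140 unigenes, 7.39-fold (log2 fold change 2.89, SE 0.26, adjusted p = 0.00111). The longer and more abundant unigene of the same entry, c96015_g1_i1, had 561, 487 and 609 TMM CPM in OE, against 372, 377 and 615 TMM CPM in mock. Its groups overlapped and it was not called (log2 fold change 0.28, adjusted p = 0.608). Summed over the 3 unigenes of the entry, the log2 fold change was 0.32 (adjusted p = 0.532), without a call. Sugar transport protein 1 c58983_g1_i1, 273 bases long, had 1.98, 1.54 and 1.33 TMM CPM in OE, against 0.292, 0.596 and 0.269 TMM CPM in mock (log2 fold change 2.02, SE 0.47, adjusted p = 0.037). This call at low counts did not hold without OE replicate 1 (adjusted p = 0.139), OE replicate 2 (0.122), mock replicate 1 (0.146) or mock replicate 3 (0.118), nor under DESeq2 (adjusted p = 0.0785), limma-voom (adjusted p = 0.0591) or the replicate block (adjusted p = 0.0755).

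Sugar transport protein 13 is the carrier that Arabidopsis uses to retrieve hexoses from the apoplast, also in defence against bacteria. Its abundant unigene c97895_g1_i1 had 643, 583 and 532 TMM CPM in OE, against 995, 878 and 1290 TMM CPM in mock. The groups lay apart, and the adjusted p was 0.06 (log2 fold change -0.85, SE 0.22). Sugar transport protein 14 c120699_g1_i1 had 273, 235 and 227 TMM CPM in OE, against 129, 182 and 187 TMM CPM in mock (log2 fold change 0.56, SE 0.20, adjusted p = 0.153). The remaining 12 tested transporters of this role lay between -0.57 and 0.86 on the log2 fold change scale, with none called.

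**Figure D2:**
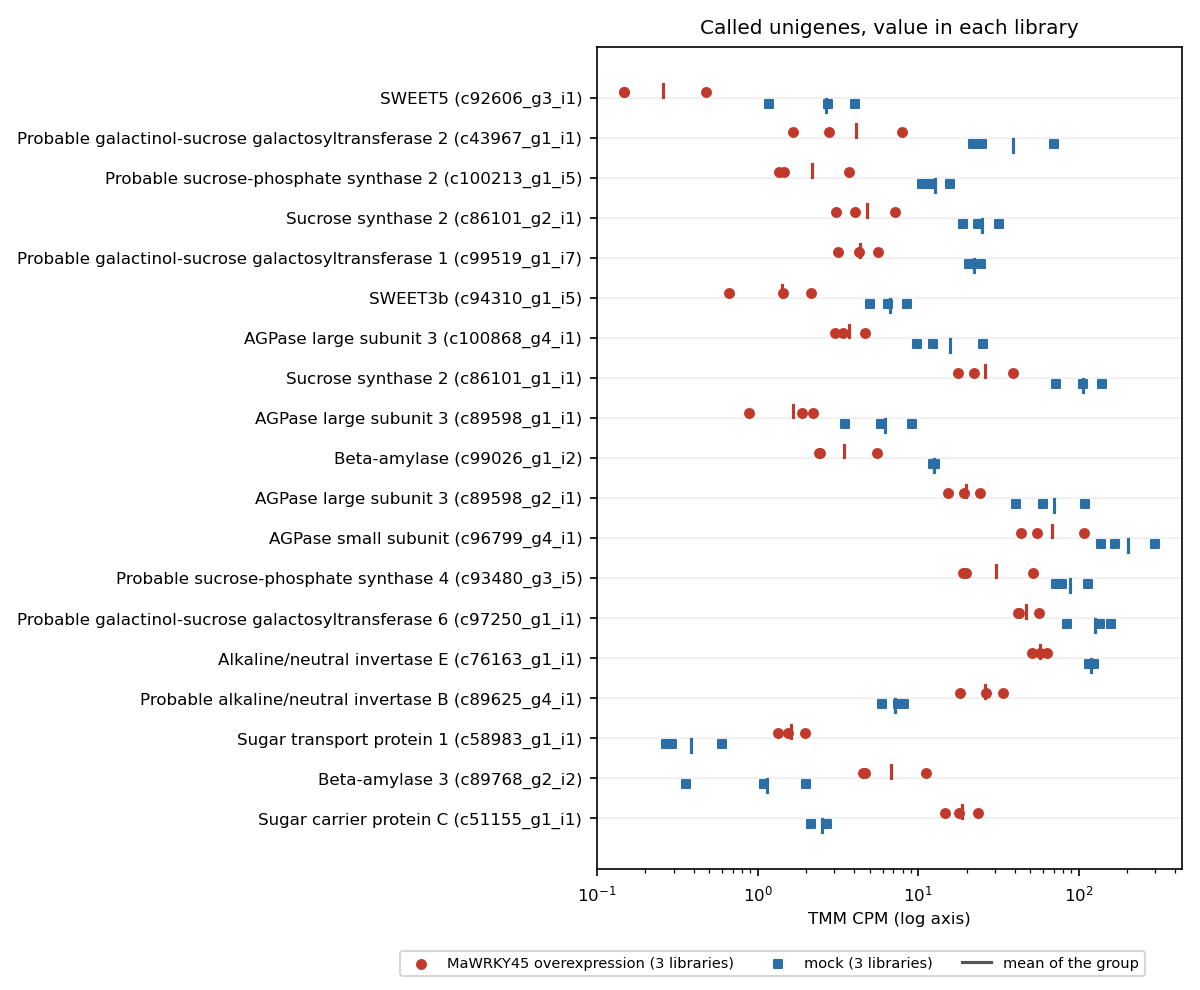
TMM CPM (log axis) of the 19 called unigenes in each library, circles for OE and squares for mock, with a vertical tick at each group's mean. The groups do not overlap in any of them, and in 10 of the 15 unigenes lower in OE the highest circle is OE replicate 3.

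In starch synthesis the calls lay at AGPase, which makes ADP-glucose and is the regulated entry into starch. The role held 23 unigenes, 15 of them tested, and 4 were called, all AGPase subunits and all lower in OE. Summed over the 23 unigenes, the groups overlapped, at 888 to 1474 TMM CPM in OE and 1261 to 1634 TMM CPM in mock. The small subunit c96799_g4_i1 had 54.7, 43.4 and 107 TMM CPM in OE, against 168, 300 and 137 TMM CPM in mock. Its level was 2.95-fold higher in mock (log2 fold change -1.56, SE 0.37, adjusted p = 0.0412), but the adjusted p was 0.147 without OE replicate 1, 0.142 without OE replicate 2, 0.0984 without mock replicate 1 and 0.052 without mock replicate 2. It was also 0.0654 with the replicate block, 0.0626 with library size alone and 0.0538 with plant unigenes alone. The other 3 called unigenes share the entry of potato large subunit 3. The remaining tested unigene of that entry was not called and had a log2 fold change of 0.02. The longest of the 3 called, c89598_g2_i1 (1095 bases), had 24.4, 19.4 and 15.3 TMM CPM in OE, against 59.7, 109 and 40.5 TMM CPM in mock (log2 fold change -1.83, SE 0.34, adjusted p = 0.0142). The second, c100868_g4_i1 (532 bases), had 3.41, 4.69 and 3.02 TMM CPM in OE, against 12.3, 25.3 and 9.79 TMM CPM in mock (log2 fold change -2.09, SE 0.37, adjusted p = 0.0119). The third, c89598_g1_i1 (310 bases), had 2.22, 1.90 and 0.885 TMM CPM in OE, against 5.84, 9.16 and 3.50 TMM CPM in mock (log2 fold change -1.89, SE 0.44, adjusted p = 0.0371). In all 3 the groups lay apart and mock replicate 2 was the highest library. The call of c89598_g2_i1 was lost without OE replicate 2 (adjusted p = 0.0571), that of c100868_g4_i1 without OE replicate 1 (adjusted p = 0.0515), and that of c89598_g1_i1 without OE replicate 1 (0.0687), 2 (0.101) or 3 (0.0543) or mock replicate 1 (0.107) or 2 (0.0616), and under limma-voom (0.0532). Summed over the entry, large subunit 3 had a log2 fold change of -1.77 (SE 0.32, adjusted p = 0.0124).

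The other large subunits did not fall alike. Large subunit 2 c84680_g1_i2 had 130, 125 and 138 TMM CPM in OE, against 218, 170 and 256 TMM CPM in mock (log2 fold change -0.71, SE 0.19, adjusted p = 0.0656). The groups did not overlap. Large subunit 1 c96331_g4_i1, the most abundant of these by mean level, had 258, 231 and 517 TMM CPM in OE, against 244, 188 and 294 TMM CPM in mock (log2 fold change 0.47, SE 0.31, adjusted p = 0.48). OE replicate 3 was alone at that height, and without it the log2 fold change was 0.02. The differences between the subunits were not tested.

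Starch synthases extend the glucan chains. Starch synthase 4, which in Arabidopsis starts starch granules, passed the adjusted p but not the fold threshold at c100896_g7_i1, with 10.3, 11.3 and 11.7 TMM CPM in OE, against 21.4, 19.1 and 24.2 TMM CPM in mock (log2 fold change -0.96, SE 0.19, adjusted p = 0.0183). Its adjusted p was between 0.064 and 0.0958 without OE replicate 1, OE replicate 2, mock replicate 1 or mock replicate 3, and it was called without mock replicate 2. Of the 3 tested unigenes of this entry, 1 had a positive fold change. Summed over the entry's 7 unigenes, the log2 fold change was -0.17 (adjusted p = 0.665). Soluble starch synthase 3 (c91122_g3_i5) was abundant and even in OE, at 301, 299 and 300 TMM CPM, against 296, 453 and 385 TMM CPM in mock (adjusted p = 0.438). Soluble starch synthase 1 c99234_g3_i1 had 32.2 ± 3.13 TMM CPM in OE and 49.6 ± 16.5 TMM CPM in mock (SD, n = 3 each, adjusted p = 0.176), and starch synthase 2 c90473_g1_i1 had 20 ± 2.39 TMM CPM in OE and 33.2 ± 11.0 TMM CPM in mock (SD, n = 3 each, adjusted p = 0.129). In neither did the groups overlap, and neither was called.

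Amylases take starch apart. Of 26 unigenes 19 were tested, and the 2 calls, both at beta-amylases, had opposite directions. Beta-amylase 3, a chloroplast enzyme that releases maltose from starch in Arabidopsis leaves, had a unigene c89768_g2_i2 with 11.1, 4.69 and 4.50 TMM CPM in OE, against 1.10, 2.01 and 0.359 TMM CPM in mock. It was 5.70-fold higher in OE (log2 fold change 2.51, SE 0.55, adjusted p = 0.0285), though the adjusted p was 0.102 without OE replicate 1, 0.125 without mock replicate 1 and 0.0661 without mock replicate 3. A more abundant beta-amylase 3 unigene, c86266_g1_i1, had 36.3, 32.1 and 22.3 TMM CPM in OE, against 3.43, 17.9 and 5.39 TMM CPM in mock. The groups lay apart there too (log2 fold change 1.75, SE 0.50, adjusted p = 0.0766), and it was called without OE replicate 3 (adjusted p = 0.0478) and without mock replicate 2, and by limma-voom and with the replicate block. Another, c76951_g1_i1, had too few counts for the test, with 21, 10 and 9 counts in OE, against 0, 2 and 1 counts in mock, a depth-scaled ratio of 12.8 (95% counting interval 4.08 to 64.7, which leaves out the variation between plants). In contrast, c84367_g2_i1 had a log2 fold change of -0.27 with overlapping groups. Over all 7 beta-amylase 3 unigenes together the log2 fold change was 1.55 (SE 0.39, adjusted p = 0.0502).

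The beta-amylase matched to soybean fell at one unigene and not at its neighbour. In OE c99026_g1_i2 had 2.46, 2.42 and 5.53 TMM CPM, against 12.6, 12.8 and 12.3 TMM CPM in mock (log2 fold change -1.85, SE 0.33, adjusted p = 0.0121). Its mock libraries were nearly equal. The call was lost without OE replicate 1 (adjusted p = 0.0516), OE replicate 2 (0.0501) or mock replicate 1 (0.055). From the same Trinity component and entry, c99026_g2_i2 had 6.18, 6.15 and 1.99 TMM CPM in OE, against 1.61, 1.86 and 1.44 TMM CPM in mock (log2 fold change 1.54, SE 0.44, adjusted p = 0.0782). OE replicate 3 was the OE library nearest to mock in both, and without it the second unigene was called (log2 fold change 1.91, adjusted p = 0.00742), as it was by DESeq2. Inactive beta-amylase 9, a chloroplast protein without the enzyme's activity, c134465_g1_i1, had 39.8, 36.5 and 36 TMM CPM in OE, against 81.7, 70.1 and 71.0 TMM CPM in mock. Its log2 fold change of -0.99 (SE 0.16, adjusted p = 0.00815) fell just short of the fold threshold. The adjusted p was 0.0579 without OE replicate 2, and the fold passed the threshold without OE replicate 1, mock replicate 2 or mock replicate 3. Alpha-amylase 3 c99245_g1_i1, the chloroplast form, had 102, 82.5 and 87.5 TMM CPM in OE, against 164, 239 and 119 TMM CPM in mock (log2 fold change -0.94, SE 0.25, adjusted p = 0.0587). The groups did not overlap, and the unigene was called without mock replicate 3.

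**Figure D3:**
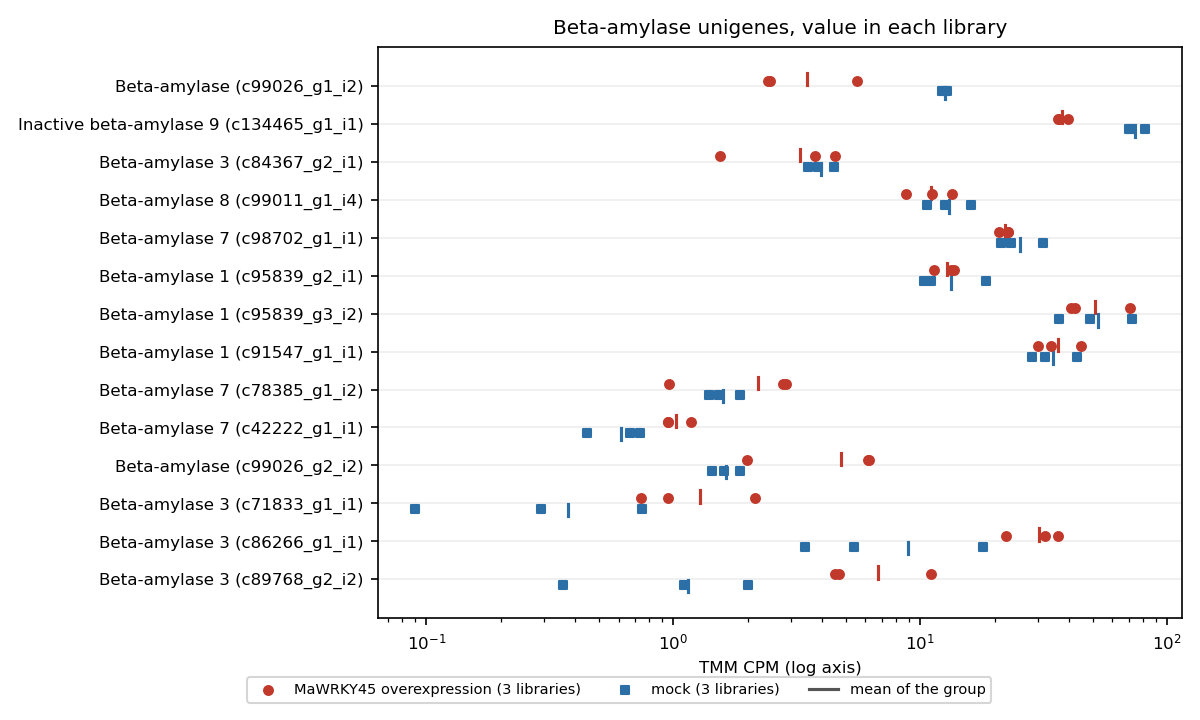
TMM CPM (log axis) of the 14 tested beta-amylase unigenes in each library, circles for OE and squares for mock, with a vertical tick at each group's mean, ordered from the lowest fold change at the top to the highest at the bottom. The bottom 3, all beta-amylase 3 unigenes, have the highest fold changes, and the 3 beta-amylase 1 unigenes have overlapping groups.

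Galactinol-sucrose galactosyltransferases held 3 of the 15 called decreases. By name they add galactose to sucrose to form raffinose. The 3 called unigenes match entries named only as probable enzymes of this kind, and whether their products make raffinose was not tested. All 5 tested unigenes of 7 had a negative fold change, 4 of them without overlap of the groups and 3 of them called. OE values wholly below mock were found in 11.5% of all tested unigenes. Galactosyltransferase 2 (c43967_g1_i1) had 1.66, 2.78 and 7.89 TMM CPM in OE, against 69.7, 24.9 and 21.9 TMM CPM in mock. It was 9.40-fold higher in mock (log2 fold change -3.23, SE 0.59, adjusted p = 0.0134), and the adjusted p was 0.0546 without OE replicate 2 and 0.0581 without mock replicate 1. Galactosyltransferase 1 (c99519_g1_i7) had 3.17, 4.25 and 5.61 TMM CPM in OE, against 24.5, 21.0 and 20.7 TMM CPM in mock. Its groups were tight and far apart (log2 fold change -2.34, SE 0.25, adjusted p = 0.0016). Galactosyltransferase 6 (c97250_g1_i1), the most abundant, had 56.4, 42.5 and 41.8 TMM CPM in OE, against 136, 159 and 84.5 TMM CPM in mock (log2 fold change -1.43, SE 0.25, adjusted p = 0.0105). The adjusted p was 0.0548 without OE replicate 2 and 0.0538 without mock replicate 1. A unigene matched to the pea enzyme, c88370_g1_i1, had 3.29 ± 1.27 TMM CPM in OE and 6.92 ± 2.51 TMM CPM in mock (SD, n = 3 each, adjusted p = 0.13). Summed over the 7 unigenes, the level was 55.1 to 64.0 TMM CPM in OE and 135 to 241 TMM CPM in mock.

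Galactinol synthases make the galactose donor of that reaction and were scarce. Of 8 unigenes 2 were tested and neither was called by edgeR (1 at an unadjusted p under 0.05) or limma-voom. Galactinol synthase 2 c82250_g1_i1 had 0.238, 0.366 and 0.369 TMM CPM in OE, against 2.34, 0.819 and 0.898 TMM CPM in mock (log2 fold change -2.03, SE 0.57, adjusted p = 0.0729). It was called without mock replicate 2. The other, c84169_g1_i5, had 1.62 ± 0.562 TMM CPM in OE and 1.72 ± 0.168 TMM CPM in mock (SD, n = 3 each, adjusted p = 0.939). Galactinol synthase 1 c82250_g2_i1, below the filter, had 2, 2 and 3 counts in OE, against 32, 9 and 12 counts in mock, a depth-scaled ratio of 0.127 (95% counting interval 0.0487 to 0.280), and DESeq2 called it.

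Trehalose-6-phosphate synthases had mostly higher values in OE, without a call by edgeR (5 at an unadjusted p under 0.05), DESeq2 or limma-voom. Of 16 unigenes 11 were tested, 8 at a positive fold change, and their summed level was 714 to 811 TMM CPM in OE and 447 to 700 TMM CPM in mock. In Arabidopsis synthases 7, 8, 10 and 11 belong to a class thought to be regulatory. Synthase 7 (c99497_g2_i2) had 126, 135 and 125 TMM CPM in OE, against 55.1, 81.6 and 72.0 TMM CPM in mock. It passed the adjusted p but not the fold threshold (log2 fold change 0.89, SE 0.19, adjusted p = 0.0244), and its adjusted p lay between 0.0671 and 0.101 without OE replicate 1, OE replicate 2, mock replicate 1 or mock replicate 3. It was called without mock replicate 2 (log2 fold change 1.01, adjusted p = 0.00812) and with library size alone. Synthase 11 (c100144_g8_i9), the most abundant, had 245, 208 and 273 TMM CPM in OE, against 110, 161 and 164 TMM CPM in mock (log2 fold change 0.74, SE 0.21, adjusted p = 0.0765). Synthase 8 (c92778_g2_i1) had 15.9, 18.7 and 16.1 TMM CPM in OE, against 7.16, 11.2 and 9.34 TMM CPM in mock (log2 fold change 0.87, SE 0.22, adjusted p = 0.052), and it was called without mock replicate 2. In all 3 every OE library was above every mock library. Synthase 10 (c100487_g2_i2) had 131 ± 19.4 TMM CPM in OE and 82.9 ± 24.4 TMM CPM in mock (SD, n = 3 each, adjusted p = 0.14).

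Synthase 1, the active enzyme in Arabidopsis, went the other way in part of the libraries. Its unigene c98814_g2_i2 had 25.1, 24.6 and 92.9 TMM CPM in OE, against 83.5, 94.0 and 93.4 TMM CPM in mock. OE replicates 1 and 2 were far below mock and OE replicate 3 was inside its range (log2 fold change -0.92, SE 0.44, adjusted p = 0.298). Trehalose-6-phosphate phosphatases remove the phosphate, and none of their 5 unigenes, all tested, was called by edgeR (1 at an unadjusted p under 0.05) or limma-voom, and 1 by DESeq2. Phosphatase A c98563_g1_i3, the most abundant, had 63.0 ± 14.1 TMM CPM in OE and 59.4 ± 2.88 TMM CPM in mock (SD, n = 3 each, adjusted p = 0.873). The lowest fold change was at phosphatase J c94212_g2_i2, with 8.79, 13.5 and 10.5 TMM CPM in OE, against 42.5, 11.0 and 26.5 TMM CPM in mock (log2 fold change -1.28, SE 0.40, adjusted p = 0.105). It was called without mock replicate 2 and by DESeq2. The other tested unigene of its entry had a log2 fold change of 0.46, and with the entry's counts summed the value was -0.27 (adjusted p = 0.591).

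**Figure D4:**
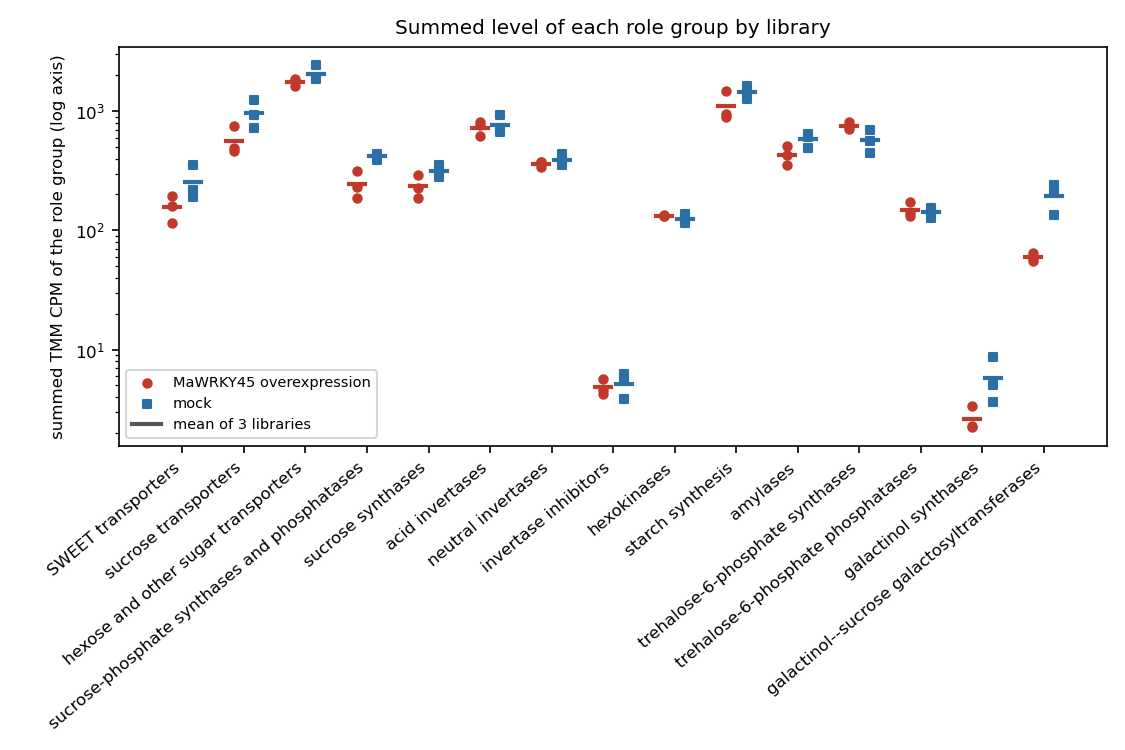
Summed TMM CPM (log axis) of each role group in each library, without the 9 remaining unigenes, circles for OE to the left of squares for mock, with horizontal bars at the mean of 3 libraries. The sucrose-phosphate synthases and phosphatases, the galactinol synthases and the galactinol-sucrose galactosyltransferases have OE sums below all mock sums, and the trehalose-6-phosphate synthases have OE sums above all mock sums.

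Hexokinases phosphorylate glucose and also sense it, and none of their 7 tested unigenes of 10 was called by edgeR (3 at an unadjusted p under 0.05) or limma-voom, and 1 by DESeq2. Hexokinase-2 of the chloroplast (c99585_g1_i7) had 54.2 ± 2.50 TMM CPM in OE and 51.1 ± 2.02 TMM CPM in mock (SD, n = 3 each, adjusted p = 0.834). Hexokinase-1 c94842_g6_i3 had 43.9 ± 7.32 TMM CPM in OE and 38.7 ± 6.48 TMM CPM in mock (SD, n = 3 each, adjusted p = 0.694). The scarce c94842_g4_i1, matched to potato hexokinase-2, had 0.317, 1.24 and 0.221 TMM CPM in OE, against 4.75, 1.71 and 2.15 TMM CPM in mock (log2 fold change -2.25, SE 0.64, adjusted p = 0.0746). The groups did not overlap, and it was called without OE replicate 2, without mock replicate 2 and by DESeq2. With the counts of its entry's 4 unigenes summed, potato hexokinase-2 was called (log2 fold change -1.36, SE 0.29, adjusted p = 0.0241). The summed level of the 10 unigenes was 133 to 134 TMM CPM in OE and 115 to 138 TMM CPM in mock. The remaining 9 unigenes match SNF4-like subunits of the SnRK1 kinase, the protein SWEETIE and an archaeal trehalose synthase, and none of the 6 tested was called by edgeR (1 at an unadjusted p under 0.05), DESeq2 or limma-voom. The most abundant was SNF4 c98740_g2_i1, at 41.2 ± 1.04 TMM CPM in OE and 51.4 ± 5.09 TMM CPM in mock (SD, n = 3 each, adjusted p = 0.332).

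Levels of different genes were compared per length, as the deposited FPKM. The sucrose transport protein c95034_g1_i1 stood at 283 ± 90.4 FPKM in OE and 450 ± 125 FPKM in mock. The cell wall invertase c23296_g1_i1 stood at 259 ± 29.2 FPKM in OE and 261 ± 52.7 FPKM in mock, sugar carrier protein C c96015_g1_i1 at 255 ± 34.4 FPKM in OE and 192 ± 55.9 FPKM in mock, and sugar transport protein 13 c97895_g1_i1 at 226 ± 15 FPKM in OE and 374 ± 71.1 FPKM in mock (SD, n = 3 each). These 4 had the highest mean FPKM of the 251 unigenes in either group, and in OE their order does not exceed their spread. In OE the next were large subunit 1 of AGPase c96331_g4_i1, at 139 ± 70.0 FPKM in OE and 91.1 ± 19.2 FPKM in mock, and sugar transport protein 14 c120699_g1_i1, at 111 ± 8.61 FPKM in OE and 69.0 ± 12.5 FPKM in mock. The AGPase small subunit c96799_g4_i1 stood at 41.2 ± 21.8 FPKM in OE and 111 ± 47.7 FPKM in mock. Among the 140 tested unigenes, 49 had a mean under 5 TMM CPM and 18 a mean over 100 TMM CPM.

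Unigenes of 1 entry often differed. Of the 34 UniProt entries with at least 2 tested unigenes, 17 held unigenes on both sides of 0. With counts summed per entry before the test, 91 entries were tested and 12 called, 1 higher (sugar transport protein 1) and 11 lower. Whether the unigenes of an entry are separate gene copies or pieces of 1 transcript was not tested.

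OE replicate 3 stood apart from the other OE libraries at several unigenes, chosen here after their values were seen. It was the highest OE library in 66 of the 140 tested unigenes and lay inside the mock range in 56, against 42 for OE replicate 1 and 37 for OE replicate 2. Granule-bound starch synthase 1 c97600_g2_i1, which makes amylose, had 42.5, 42.5 and 246 TMM CPM in OE, against 109, 169 and 137 TMM CPM in mock. OE replicates 1 and 2 were below all mock libraries and OE replicate 3 above them (log2 fold change -0.32, SE 0.58, adjusted p = 0.832). Alpha-amylase 2 c94601_g1_i1 had 62.5, 47.5 and 172 TMM CPM in OE, against 203, 87.8 and 132 TMM CPM in mock (log2 fold change -0.59, SE 0.45, adjusted p = 0.557). Without OE replicate 3 the log2 fold change was -1.69 at granule-bound starch synthase 1 (adjusted p = 0.00338), -1.35 at alpha-amylase 2 (adjusted p = 0.0362) and -1.85 at trehalose-6-phosphate synthase 1 (adjusted p = 0.0012), and all 3 were called. The banana WRKY unigene in that library, at 3615 counts, lay between OE replicates 1 and 2. Mock replicate 2 was the highest mock library in 72 of the 140. These library positions were counted in the 140 alone, so whether they differ from those of all tested unigenes was not tested.

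**Figure D5:**
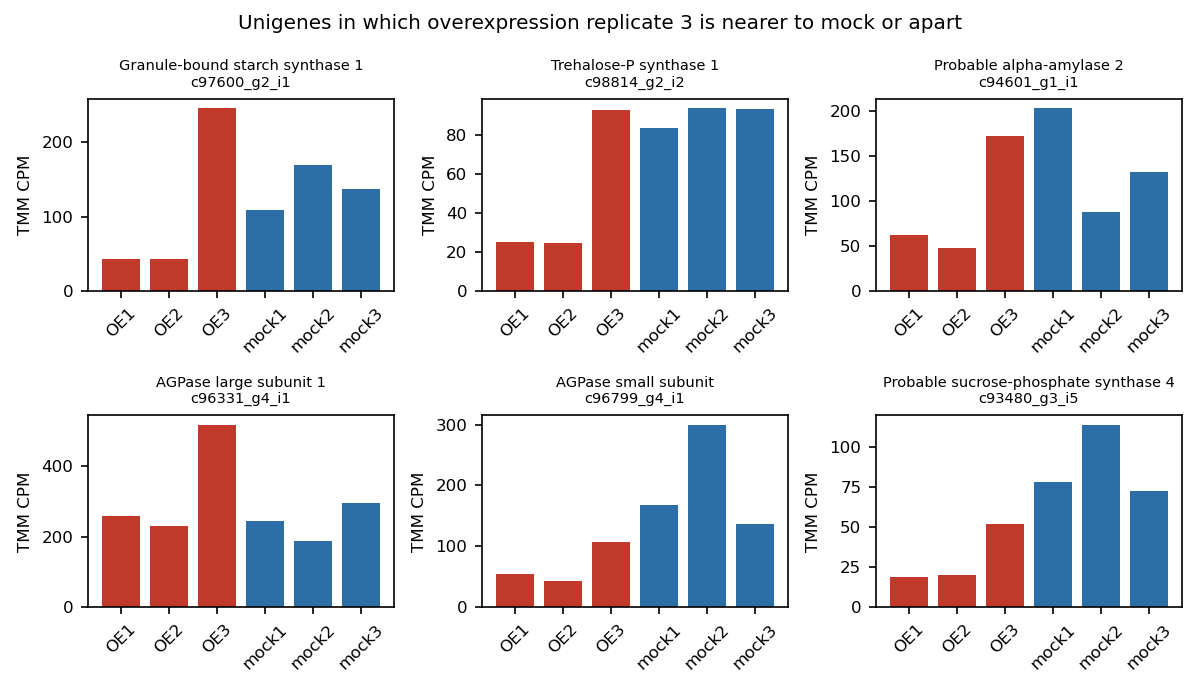
TMM CPM (bars from 0) of 6 unigenes in OE replicates 1 to 3 (red) and mock replicates 1 to 3 (blue), 1 panel per unigene. OE replicate 3 is the highest OE library in each, at 246 TMM CPM for granule-bound starch synthase 1 against 42.5 TMM CPM in OE replicates 1 and 2.

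Other genes of carbohydrate metabolism, listed by annotation (147 unigenes, 97 tested), gave 11 calls (11.3%), 2 higher and 9 lower in OE. Among all tested unigenes 4.59% were called, 1.92% higher and 2.67% lower. The median log2 fold change of the list was -0.31, against -0.01 over all tested unigenes. The lower ones included both dikinases that phosphorylate starch before its breakdown. Alpha-glucan water dikinase c95999_g2_i3 had 57.3, 49.2 and 109 TMM CPM in OE, against 232, 303 and 245 TMM CPM in mock (log2 fold change -1.85, SE 0.29, adjusted p = 0.00738). Phosphoglucan water dikinase c100010_g3_i7 had 86.7, 66.9 and 88.7 TMM CPM in OE, against 205, 328 and 215 TMM CPM in mock (log2 fold change -1.63, SE 0.23, adjusted p = 0.00463). Both calls held without any 1 library. The maltose excess protein 1-like unigene c96628_g4_i3, named after the exporter of maltose from the chloroplast, had 20 ± 6.29 TMM CPM in OE and 55.7 ± 16.3 TMM CPM in mock (SD, n = 3 each, log2 fold change -1.48, adjusted p = 0.0151), and its adjusted p was 0.0585 without OE replicate 1 and 0.0546 without OE replicate 2. Chloroplast fructose-1,6-bisphosphatase c91633_g2_i1, an enzyme of the Calvin cycle, had 66.9 ± 20.1 TMM CPM in OE and 186 ± 54.7 TMM CPM in mock (SD, n = 3 each, log2 fold change -1.48, adjusted p = 0.0137), with an adjusted p of 0.0693 without OE replicate 2 and 0.0603 without mock replicate 1.

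Phosphoglucomutases interconvert the glucose phosphates that feed sucrose and starch. A unigene matched to a bacterial phosphomannomutase/phosphoglucomutase, c57335_g1_i1, had 19.5, 16.9 and 12.5 TMM CPM in OE, against 87.2, 136 and 79.3 TMM CPM in mock (log2 fold change -2.63, SE 0.26, adjusted p = 0.00143). It was the largest decrease of the list and held without any 1 library. Cytosolic phosphoglucomutase c95501_g2_i1 had 52.4 ± 7.02 TMM CPM in OE and 119 ± 18.8 TMM CPM in mock (SD, n = 3 each, log2 fold change -1.18, adjusted p = 0.00763), with an adjusted p of 0.0519 without OE replicate 2. The other lower calls were a sugar phosphate translocator (c88477_g1_i1, log2 fold change -1.31, adjusted p = 0.0365), phosphoglucan phosphatase LSF1 (c95580_g1_i1, log2 fold change -1.01, adjusted p = 0.0383) and isoamylase 2 (c54817_g1_i1, log2 fold change -1.0, adjusted p = 0.0291). Each of the 3 was lost without OE replicate 1, 2 or 3 and without some mock libraries (adjusted p between 0.0228 and 0.166, with a fold below 2 where it was under 0.05), and under limma-voom and the replicate block. The higher ones were polyol transporter 6 and phosphoenolpyruvate/phosphate translocator 2. Polyol transporter 6 c96209_g1_i3 had 215, 169 and 127 TMM CPM in OE, against 36.5, 55.9 and 39.3 TMM CPM in mock (log2 fold change 1.96, SE 0.25, adjusted p = 0.00291). The translocator c89019_g1_i3 had 14.3, 12.0 and 10.6 TMM CPM in OE, against 2.41, 5.88 and 2.15 TMM CPM in mock (log2 fold change 1.81, SE 0.37, adjusted p = 0.0213). Its adjusted p was 0.0761 without OE replicate 1, 0.0572 without OE replicate 2, 0.1 without mock replicate 1 and 0.0642 without mock replicate 3.

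The 111 unigenes that were not tested were short and scarce. Their median length was 368 bases, against 2038 bases in the tested ones, their median total over the 6 libraries was 7 counts, and together they held 0.252% of the counts of the 251. No count was found for 3 of them. The one with the most counts, sugar transport protein 10 c95549_g5_i1, had 0, 1 and 0 counts in OE, against 45, 46 and 0 counts in mock. The mock libraries themselves differed there. The groups did not overlap in 13 of the 111, against 22.9% of all tested unigenes, and the share over all untested unigenes was not computed. Among the 13, sugar transport protein 12 c58983_g2_i1, from the component of the called sugar transport protein 1, had 27 counts in OE and 5 counts in mock (depth-scaled ratio 5.19, 95% counting interval 1.97 to 17.2). Untested unigenes with fewer counts in OE included sugar transport protein 5 c53787_g1_i1 (ratio 0.352, interval 0.159 to 0.723) and alpha-amylase c87521_g2_i1 (ratio 0.367, interval 0.178 to 0.714). At this depth a change in most of the 111 was not detectable.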

How the data were processed

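Trimming (Trimmomatic), de novo assembly (Trinity), clustering of contigs (CD-HIT-EST), alignment (Bowtie2) and counting (RSEM) were done by the authors, without a genome. The deposited counts are whole numbers per unigene, with no scaling. Expected counts, deposited for each library, equal them in all 167935 rows. The deposited FPKM, which the authors scaled by unigene length and library size, served only to compare levels between genes. Reads that fit several gene copies were shared out by RSEM, so copies are uncertain. The library kit was stranded, but whether strand was used in counting is not given in the sources used here.

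The test was edgeR 4.0.16 run in R 4.3.3, with its filterByExpr, TMM, glmQLFit and glmQLFTest steps and Benjamini-Hochberg adjustment over 37201 unigenes. CPM are counts scaled to a common library total. The SE is the absolute log2 fold change divided by the square root of F. Members and lists were chosen with earlier results of these data known. Named are all called unigenes, the most abundant of each role, the 3 most abundant of all, the called ones of the carbohydrate list with the largest changes, and banana WRKY matches. Another 31 named unigenes, among them unigenes near a threshold or marked by OE replicate 3, were chosen after their values were seen. SWEETIE and trehalose synthase were put with the other unigenes. Alternatives were DESeq2 1.42.0, limma-voom (limma 3.58.1), glmTreat, other scalings and filters, sums per UniProt entry, a replicate block and leaving out each library. The test was checked on simulated counts. An exact permutation test of 3 against 3 libraries cannot go below p = 0.1. Intervals cover counting error alone. No sequence is printed.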

Additional observations from a re-analysis of the deposited data

How the results depend on the processing

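The count of 19 called sugar and starch unigenes (4 higher, 15 lower) stayed within 1.5 times under DESeq2 (26), limma-voom (18), DESeq2 size factors (20), library size alone (17), plant unigenes alone (17) and at least 1 CPM in 3 libraries (19). It was 4 with glmTreat against a fold change of 2 (1 higher, 3 lower), 34 without a filter on low counts (9 higher, 25 lower) and 12 with counts summed per UniProt entry (1 higher, 11 lower). Leaving out 1 library gave 9 to 27 calls, 2 to 7 higher and 7 to 20 lower. The carbohydrate list's 11 calls became 2 with glmTreat, 22 without a filter and 4 to 18 with 1 library left out. The number of all unigenes called, 1706, became 2562 under DESeq2, 382 with glmTreat, 4201 without a filter and 669 to 2756 with 1 library left out. The median log2 fold change of -0.11 was 0.01 with library size alone and lay between -0.23 (without OE replicate 3) and -0.07 (without mock replicate 2). The cause of these shifts was not tested.

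Signs turned at 6 named unigenes, none of them called, and the values with 1 library left out are log2 fold changes. Sucrose synthase c98223_g2_i2 ran from -0.18 (without OE replicate 2) to 0.41, with -0.03 without mock replicate 1. Granule-bound starch synthase 1 c97600_g2_i1 ran from -1.69 to 0.07 (without OE replicate 2), with 0.06 without OE replicate 1. Invertase c23296_g1_i1 ran from -0.24 to 0.05 (without mock replicate 3), and phosphatase A c98563_g1_i3 from -0.10 (without OE replicate 2) to 0.21. Invertase inhibitor c136463_g1_i1 ran from -0.31 to 0.01 (without mock replicate 3) and had 0.00 with library size alone. Galactinol synthase 2 c84169_g1_i5 ran from -0.39 to 0.06 (without OE replicate 1), with 0.05 without OE replicate 3 and 0.04 with library size alone.

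With the replicate number as a block, 18 sugar and starch unigenes were called, 17 of them among the 19. The block ended the calls of sugar transport protein 1 c58983_g1_i1 (adjusted p = 0.0755) and the AGPase small subunit c96799_g4_i1 (adjusted p = 0.0654) and added beta-amylase 3 c86266_g1_i1. Deviations of same-numbered OE and mock libraries correlated at -0.112, -0.131 and -0.093, and those of differently numbered ones at -0.132 to 0.25. No pairing by number was seen, and calls without the block are given. Whether libraries of different numbers share a batch was not tested.

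With 3 libraries a group and 12031310 to 14285138 counts a library, the 111 untested unigenes had at most 92 counts in all, and changes in them were mostly not detectable. A call near the threshold rests on few libraries: 13 of the 19 were lost in at least 1 of 6 fits with a library left out.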
